A study of Mus musculus with 2 samples.

Results

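Imprinted genes are transcribed mainly from the maternal or mainly from the paternal chromosome. For most of them DNA methylation set in the oocyte or the sperm marks an imprinting control region, and this mark is kept through cleavage while much other methylation is lost. A smaller set is instead repressed on the maternal allele by histone H3 lysine 27 trimethylation inherited from the oocyte. Many imprinted products act in growth of the fetus and the placenta, and imprinted genes are followed in cultured embryos because their control regions must survive the culture period.

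A fixed list of 35 imprinted genes was read out in pseudoblastocysts, which are cavitated embryos collected whether or not they had an inner cell mass (ICM). All 35 were found by symbol among the 52366 genes of the count table, and 34 had at least 1 UMI, a unique molecular identifier that stands for a captured transcript. Oocytes of B6D2F1 females aged 8 to 9 weeks were fertilized in vitro with sperm of ICR males aged 15 to 20 weeks, and the zona pellucida was removed with Actinase E. The 4 groups of 6 embryos were 1C (zygotes freed of the zona at 5 hours post insemination, hpi), 2CB (single blastomeres of 2-cell embryos, isolated at 24 hpi), 4CB (single blastomeres of 4-cell embryos, 48 hpi) and 8CB (single blastomeres of 8-cell embryos, also 48 hpi). All were cultured in HTF medium with BSA to 96 hpi. No group had an intact zona, and each library was made from 1 whole embryo. The counts do not separate the parental alleles, so every value is the sum of both, and a change of imprinting cannot be read from them. In whole-embryo counts, fewer cells of a type and less RNA per cell cannot be told apart.

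Libraries were pooled 12 at a time according to the labels, 1C together with 8CB embryos and 2CB together with 4CB embryos. The comparison of 2CB and 4CB with 1C and 8CB is the same division, so pool and origin cannot be told apart in it, whereas 8CB against 1C and 4CB against 2CB each lie inside a pool. Total UMIs ranged from 70941 to 368348 per embryo in the 1C and 8CB pool and from 132725 to 1507471 in the 2CB and 4CB pool. Levels are counts scaled to 1000000 UMIs of an embryo (CPM) and are compared between embryos for 1 gene, not between genes. Of the 10 trophectoderm markers listed, 8 were called higher and 1 lower in 2CB and 4CB embryos, and their summed level was 576 to 1197 CPM in 1C and 8CB embryos against 3177 to 6582 CPM in the others, with Elf5 at 0 UMIs in 1C. Of 10 primitive endoderm markers 7 were tested and 6 were called higher and 1 lower, and of 10 epiblast and ICM markers 5 were tested and 2 were called higher and 3 lower. Summed maternal oocyte transcripts reached 14.1 to 103 CPM in 1C and 8CB embryos and 2.54 to 24.9 CPM in 2CB and 4CB embryos, and Hba-a1 and Hbb-bt of the blood list were at 0 in all 4 groups. The part of these shifts in the values below was not tested.

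The start regions of a few members are shown first, those of a pair that shares a promoter and of an antisense pair. Of the 35 genes, 29 matched RefSeq windows of 250 bases before to 50 bases after a transcript start (GRCm38.p6). Peg3 and Usp29 are transcribed away from each other. Their windows share 263 bases, and the capitals in the Peg3 window (chr7:6730370-6730669, minus strand) mark the 165 bases from the Usp29 start to the Peg3 start.
Peg3: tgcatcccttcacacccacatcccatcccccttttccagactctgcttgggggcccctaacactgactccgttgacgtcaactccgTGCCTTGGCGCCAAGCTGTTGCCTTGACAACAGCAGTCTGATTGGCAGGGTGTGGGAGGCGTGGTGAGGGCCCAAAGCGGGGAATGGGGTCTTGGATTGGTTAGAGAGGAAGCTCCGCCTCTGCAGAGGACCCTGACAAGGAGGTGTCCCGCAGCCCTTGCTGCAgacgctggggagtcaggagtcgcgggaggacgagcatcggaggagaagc
Airn starts inside Igf2r and runs against it. Its window (chr17:12741061-12741360, plus strand) held 3 CpGs, in capitals, and that of Igf2r (chr17:12769657-12769956, minus strand) held 34, against a median of 7 in all 32851 windows.
Airn: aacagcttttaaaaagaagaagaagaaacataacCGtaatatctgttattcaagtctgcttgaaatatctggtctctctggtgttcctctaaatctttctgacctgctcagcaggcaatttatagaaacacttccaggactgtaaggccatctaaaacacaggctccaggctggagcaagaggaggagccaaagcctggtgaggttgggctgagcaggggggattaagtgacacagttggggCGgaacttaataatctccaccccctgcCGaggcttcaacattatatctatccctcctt
Igf2r: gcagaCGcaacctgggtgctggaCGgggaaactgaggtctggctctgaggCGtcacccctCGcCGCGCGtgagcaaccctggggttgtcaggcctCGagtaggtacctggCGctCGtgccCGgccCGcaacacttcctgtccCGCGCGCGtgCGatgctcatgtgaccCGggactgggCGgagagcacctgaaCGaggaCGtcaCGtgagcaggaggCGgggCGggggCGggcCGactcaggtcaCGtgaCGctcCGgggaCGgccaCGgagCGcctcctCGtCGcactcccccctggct
The imprint-keeping protein ZFP57 binds TGCCGC when its CpG is methylated. The letters TGCCGC, searched on both strands (GCGGCA on the other), occurred in 12 of the 51 member windows, from 11 members, and in 11.6% of all 32851 windows. The motif holds a CpG and windows were not matched for CpG count, so these shares are not compared. The Mest windows with a match overlap almost fully and were counted apart. No other motif was searched. The most matches in 1 window were 3, at Zdbf2, followed by 2 at Mest and at Nap1l5. The windows of Peg3, Usp29, Airn and Igf2r held no match. A match is a description of these letters and not a site.

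Read over all 35 genes, the ranges of the summed level overlapped between the groups. It was 1420 to 2318 CPM in 1C embryos (median 1727), 945 to 1872 CPM in 2CB (median 1337), 1368 to 3867 CPM in 4CB (median 1854) and 874 to 1522 CPM in 8CB (median 1252). Embryos had a UMI for 16 to 32 of the 35 genes. After each embryo was thinned to 70941 UMIs, the medians were 19.5 genes for 1C, 16.5 for 8CB and 20 for both 2CB and 4CB. Kcnq1ot1, Igf2r, Snrpn, Gab1, Sfmbt2, Jade1, H13, Commd1 and Grb10 had UMIs in all 24 embryos, and 4 of them, Kcnq1ot1, Snrpn, Jade1 and H13, still did after thinning. Nap1l5, an intronless gene related to nucleosome assembly proteins, had 0 UMIs in all 24 embryos, where a count of 0 allows up to 3 counts over a group.

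**Figure D1:**
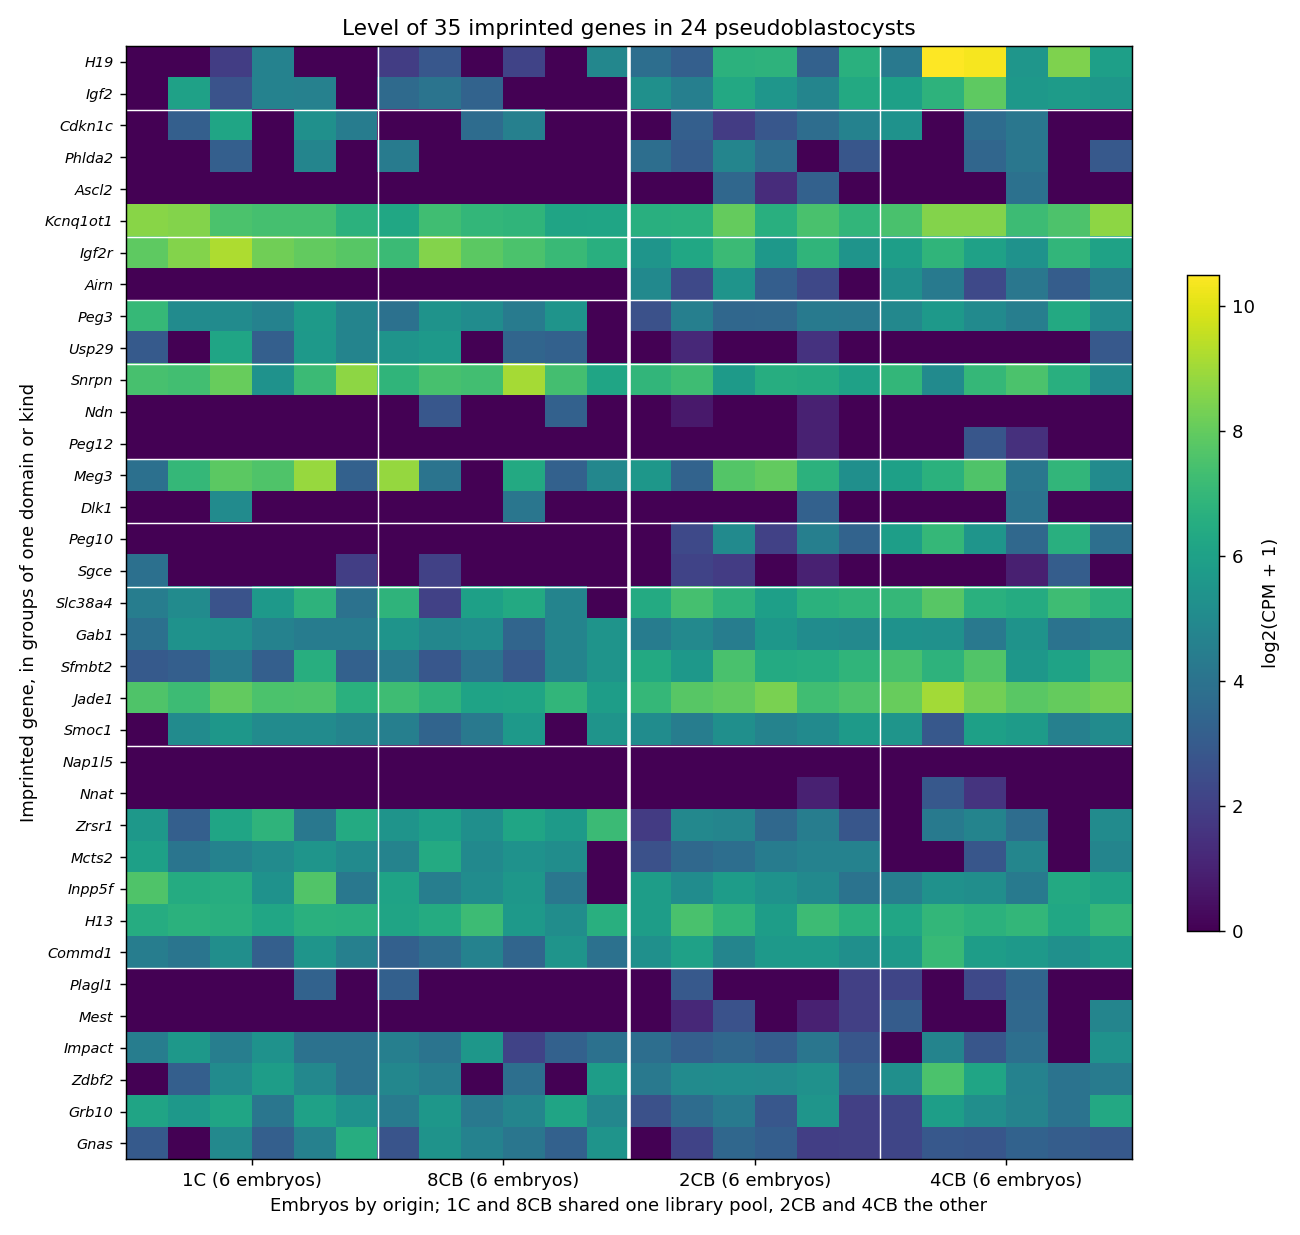
Level of the 35 genes (rows, in groups of one domain or kind) in each of the 24 embryos (columns, 6 per origin), coloured by log2(CPM + 1). H19, Igf2, Airn, Peg10 and Sfmbt2 are brighter in 2CB and 4CB embryos, right of the thick line, Igf2r and Usp29 in 1C and 8CB embryos, and Meg3 varies within every group.

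For the test, a filter kept genes that reached a minimum level, beyond a single UMI, in about as many embryos as a group holds. Impact and Gnas had UMIs in most embryos and did not pass, and a gene could pass through either side alone. Between the pools, 19 of the 35 genes were tested. At an adjusted p below 0.1, 7 were called higher and 5 lower in 2CB and 4CB embryos and 7 were not called, with a median log2 fold change of 0.26 against 0.12 over all 5940 genes tested. Of all genes tested, 31.3% were called higher and 24% lower, so calls in both directions were common throughout the transcriptome. Calls in both directions occurred among maternally and among paternally expressed members. Of the 9 maternally expressed members 2 were called higher, 2 lower, 2 not called and 3 were not tested, and of the 25 paternally expressed members 5 were higher, 3 lower, 5 not called and 12 not tested. For all 19 genes the embryos of both sides overlapped, while 3.54% of all genes tested lay wholly higher and 2.21% wholly lower without overlap. All log2 fold changes below are 2CB and 4CB over 1C and 8CB unless stated.

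H19 and Igf2, neighbours on distal chromosome 7 (H19 at chr7:142575529-142578143 and Igf2 at chr7:142650766-142666816, GRCm38), were both higher in 2CB and 4CB embryos. They compete for shared enhancers in many tissues, H19 giving a noncoding RNA from the maternal allele and Igf2 a fetal growth factor from the paternal one. H19 had 0 to 24.3 CPM in 1C embryos (median 0), 0 to 28.2 in 8CB (median 3.04), 7.96 to 110 in 2CB (median 55.9) and 18.1 to 1448 in 4CB (median 207). Within 4CB the level was uneven, and 4CB embryos 2, 3 and 5 held 227, 657 and 47 of the 1176 UMIs, at 1448, 1310 and 354 CPM. H19 passed the filter through 2CB and 4CB embryos alone, so the side where it was high admitted it to the test. The H19 difference was 5.5 (SE 0.86, adjusted p = 5.78e-06). It was 6.30 without 1C embryo 4, which held 3 of the 4 H19 UMIs of its group, and 4.59 after thinning. Igf2 had 0 to 64.1 CPM in 1C (median 14.4), 0 to 15.6 in 8CB (median 4.56), 21.9 to 81.1 in 2CB (median 41.5) and 46.1 to 237 in 4CB (median 57.2). All 12 2CB and 4CB embryos and 7 of the 12 others had an Igf2 UMI, and the difference was 2.53 (SE 0.50, adjusted p = 0.000128). Of the UMIs of both genes, H19 took 51.2% in 2CB and 81.8% in 4CB over the group, and between 22.7% and 93.0% in single 4CB embryos. Igf2 shares 98 exon bases with the opposite-strand gene Igf2os (232 UMIs), and the strand setting of the counting is not given in the sources used here.

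The Kcnq1ot1 domain lies next to H19 and Igf2 on the same chromosome, and whether its genes differed from each other in their change was not tested. Kcnq1ot1, a long noncoding RNA made from the paternal allele that silences its neighbours in cis, had 107 to 398 CPM in 1C (median 177), 68.2 to 153 in 8CB (median 95.2), 99.0 to 258 in 2CB (median 111) and 147 to 422 in 4CB (median 281). Its difference between the pools was 0.33 (SE 0.25, adjusted p = 0.271), and each pool held one group with a high and one with a low median. Of the maternally expressed genes it silences, none was tested. Cdkn1c, an inhibitor of cyclin-dependent kinases, had 132 UMIs in 14 of 24 embryos, and its medians were 14.1, 0, 7.08 and 5.98 CPM for 1C, 8CB, 2CB and 4CB. Phlda2, which limits placental growth, had 80 UMIs in 11 embryos. Ascl2, a trophoblast transcription factor, had 30 UMIs, all in 3 2CB embryos and in 4CB embryo 4, which alone held 16. Its level was 0 to 10.4 CPM in 2CB (median 0.774) and 0 to 14.2 in 4CB (median 0). Without a filter its difference of 3.57 was called (adjusted p = 0.00576), but without 4CB embryo 4 it was 1.73 with an adjusted p of 1.

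Igf2r and Airn, an overlapping pair on chromosome 17, moved in opposite directions. Igf2r (chr17:12682406-12769664, minus strand) codes for the receptor that takes up and degrades IGF2, and Airn (chr17:12741311-12860122, plus strand) is the paternal noncoding transcript across the Igf2r start that silences Igf2r in cis. Igf2r had 219 to 584 CPM in 1C (median 277), 98.7 to 377 in 8CB (median 163), 42.1 to 141 in 2CB (median 61.8) and 39.8 to 121 in 4CB (median 64.8). Most 1C and 8CB embryos lay above every 2CB and 4CB embryo, and the difference was -1.79 (SE 0.26, adjusted p = 1.91e-06). Airn had 0 UMIs in all 12 1C and 8CB embryos. It had 0 to 41.7 CPM in 2CB (median 5.86) and 3.99 to 36.2 in 4CB (median 18.0), with UMIs in 5 and 6 embryos, and in 3 and 4 after thinning. The 81 UMIs over 2CB and 4CB, 12.2 CPM, were about 12-fold the 1.02 CPM that 3 counts over the 1C and 8CB group would give. Without 2CB embryo 3 this was 10.2-fold. Airn was too sparse for the filter. Without a filter it was called higher (adjusted p = 3.6e-07), as were 14.2% of the 23171 genes then tested, with 9.61% lower. Airn took 14.3% of the UMIs of the pair in 2CB and 4CB, up to 41.4% in 1 embryo. Their annotated exons share no base.

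Peg3 and Usp29 share the start region printed above, and in the fit without a filter, the one that held both, Usp29 was called between the pools and Peg3 was not. Peg3 gives a zinc finger protein and Usp29 a ubiquitin-specific protease, both from the paternal allele. Peg3 had 24.3 to 130 CPM in 1C (median 32.3), 0 to 42.6 in 8CB (median 26.5), 5.08 to 21.9 in 2CB (median 14.4) and 21.2 to 82.9 in 4CB (median 32.4). The groups overlapped, and the difference of -0.60 (SE 0.35) was not called (adjusted p = 0.165). It was called without 4CB embryo 5 (-0.74, adjusted p = 0.0858) and turned to 0.35 after thinning (adjusted p = 0.651). Without a filter Peg3 was not called either (adjusted p = 0.292). Usp29 had 0 to 70.6 CPM in 1C (median 17.0), 0 to 49.8 in 8CB (median 9.18), 0 to 1.91 in 2CB (median 0) and 0 to 6.59 in 4CB (median 0). That is 89 UMIs in 9 of 12 1C and 8CB embryos against 5 UMIs in 3 of 12 others, and after thinning 7 embryos against 0. Most of the 89 lay in 1C embryos 3 and 5 (26 and 17 UMIs) and 8CB embryos 1 and 2 (15 and 16). Without a filter the Usp29 difference was -4.71 (adjusted p = 5.93e-11), and it was -5.43 without 4CB embryo 6 and -3.69 after thinning. Usp29 took 45.9% of the UMIs of the pair in 1C and 8CB and 3.36% in 2CB and 4CB. In single embryos this share ran from 0% to 75.0% and from 0% to 16.7%, and whether the change of Usp29 differed from that of Peg3 was not tested.

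**Figure D2:**
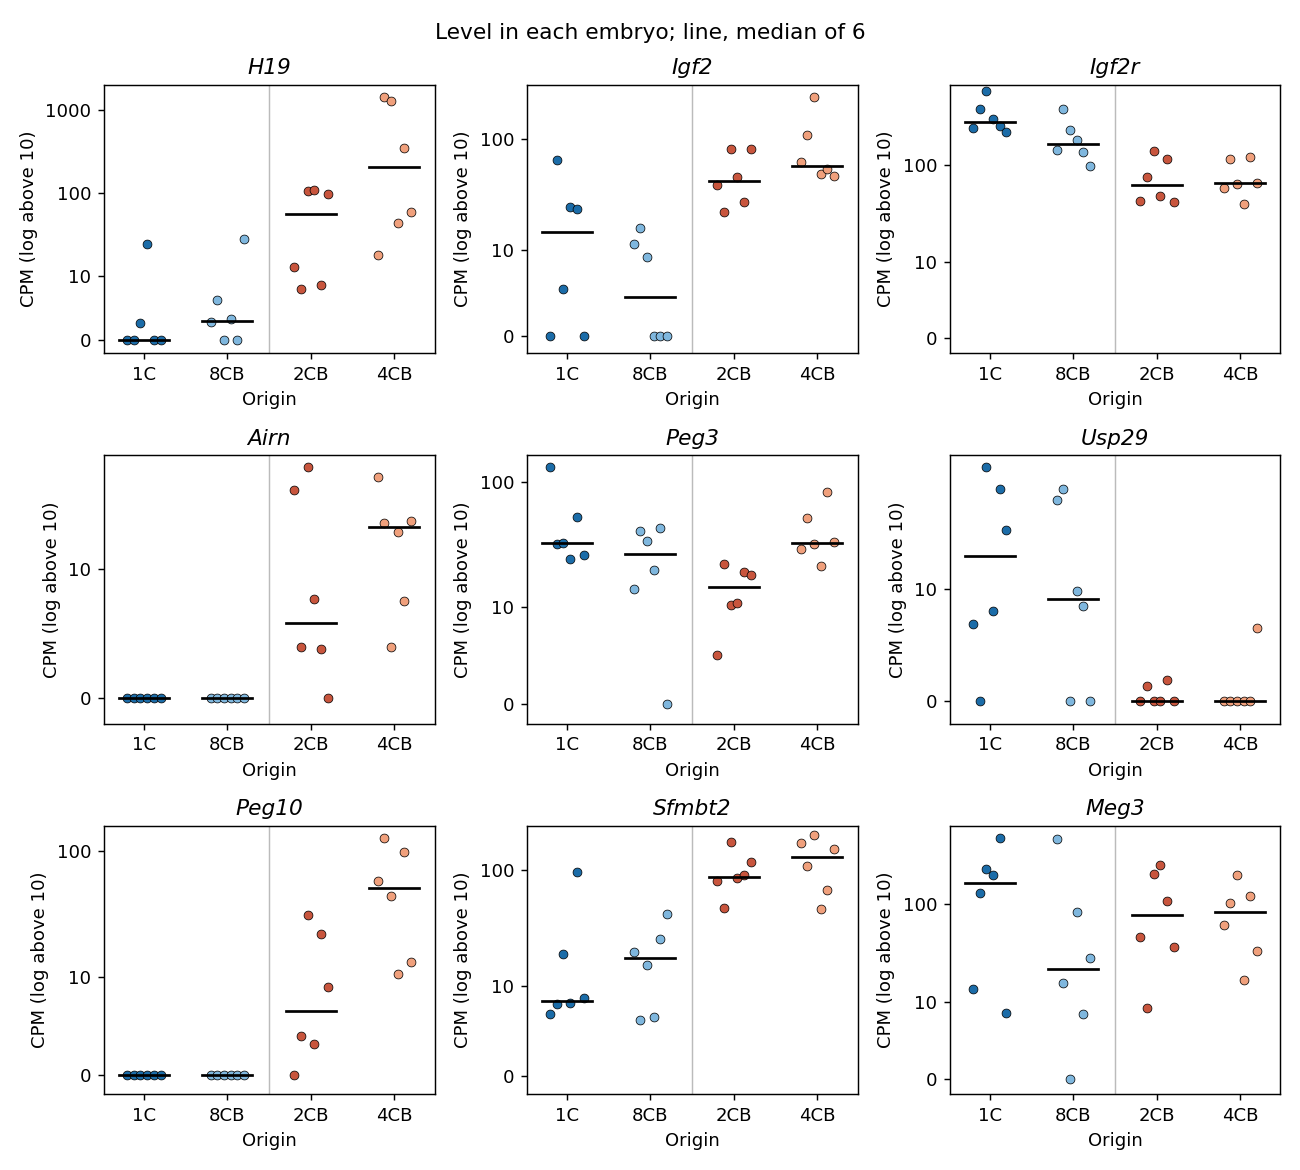
CPM in each embryo of 9 members, by origin, on an axis that is linear to 10 and logarithmic above. Points are single embryos and bars the median of 6. The 12 1C and 8CB embryos are all at 0 for Airn and Peg10, and 4CB embryos run from 18.1 to 1448 CPM for H19.

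Peg10, like Airn, had UMIs in 1 pool alone, as did the sparser Ascl2, Mest, Peg12 and Nnat. It derives from a retrotransposon and is needed for the placenta, and it is made from the paternal allele together with Sgce, which codes for a sarcoglycan. Peg10 had 0 UMIs in the 12 1C and 8CB embryos, 0 to 31.3 CPM in 2CB (median 6.50) and 10.6 to 128 in 4CB (median 50.9). Its 131 UMIs in 11 of 12 embryos, 9 of them after thinning, were about 19.4-fold the same floor, and 16.8-fold without 4CB embryo 2. Peg10 was called without a filter (adjusted p = 3.32e-11). Sgce had 13 UMIs in 8 embryos, with 4 of these UMIs in 1C and 8CB.

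Of the 5 genes known for imprinting by histone methylation and not DNA methylation, 3 were called higher in 2CB and 4CB embryos and none lower, with a median log2 fold change of 0.96. Among the genes tested as a whole 31.3% were higher and 24% lower, and with 5 genes nothing particular to the group is read from the count. Sfmbt2, a Polycomb-related protein needed by trophoblast, had 6.86 to 96.2 CPM in 1C (median 8.37), 6.23 to 42.3 in 8CB (median 17.4), 47.1 to 177 in 2CB (median 88.0) and 46.0 to 201 in 4CB (median 130). Except for 1C embryo 5 at 96.2 CPM, every 1C and 8CB embryo lay below every other embryo, and the difference was 2.37 (SE 0.39, adjusted p = 1.09e-05). Without that embryo it was 3.01. Slc38a4, an amino acid transporter of the placenta, had medians of 26.3, 43.2, 106 and 116 CPM for 1C, 8CB, 2CB and 4CB, within ranges of 5.43 to 111, 0 to 112, 60.4 to 170 and 86.7 to 217. Its difference was 1.35 (SE 0.39, adjusted p = 0.0054). Jade1, a scaffold of a histone acetyltransferase complex, had medians of 186, 90.4, 203 and 289 CPM in the same order, within ranges of 101 to 250, 56.4 to 149, 127 to 337 and 222 to 523. Its difference was 0.96 (SE 0.21, adjusted p = 0.000364), and the 1C and 2CB medians lay close together. Gab1, an adaptor of receptor tyrosine kinases, was the most even of the 5, with medians of 22.3, 30.7, 29.9 and 29.0 CPM for 1C, 8CB, 2CB and 4CB within 9.83 to 46.4, and a difference of 0.10 (SE 0.28, adjusted p = 0.801). Smoc1, a secreted calcium-binding protein, had medians of 32.1, 20.3, 32.3 and 38.2 CPM within 0 to 61.8, and a difference of 0.42 (SE 0.37, adjusted p = 0.362).

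Small imprinted retrogenes lie inside host genes, and 2 such pairs were tested. Zrsr1 and Mcts2 were called lower, Commd1 was called higher and H13 was not called. With 24% of all genes tested lower and 31.3% higher, nothing particular to retrogenes is read from 2 pairs. Zrsr1, a splicing-factor relative inside Commd1 on chromosome 11, had 8.02 to 113 CPM in 1C (median 59.3), 36.4 to 141 in 8CB (median 55.2), 2.54 to 28.5 in 2CB (median 15.9) and 0 to 32.9 in 4CB (median 15.8). Its difference was -1.92 (SE 0.43, adjusted p = 0.000457). The host Commd1, which acts in copper handling, had 8.09 to 43.7 CPM in 1C (median 21.8), 8.41 to 42.6 in 8CB (median 13.3), 26.1 to 63.7 in 2CB (median 43.8) and 37.7 to 134 in 4CB (median 51.7), a difference of 1.28 (SE 0.31, adjusted p = 0.000983). Zrsr1 thus took 71.7% of the UMIs of the pair in 1C and 8CB and 25.5% in 2CB and 4CB. Both share 203 exon bases on opposite strands, and which gene reads in those bases were given to is not known here.

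Mcts2, a translation-factor relative in an intron of H13 on chromosome 2, had 16.0 to 61.8 CPM in 1C (median 32.1), 0 to 84.0 in 8CB (median 32.2), 5.08 to 24 in 2CB (median 16.6) and 0 to 27.4 in 4CB (median 2.99). Its difference was -1.42 (SE 0.43, adjusted p = 0.00779). Mcts2 passed the filter through 1C and 8CB embryos alone, the side where it was high. H13, a signal peptide peptidase, had medians of 97.9, 78.6, 108 and 114 CPM for 1C, 8CB, 2CB and 4CB within 34.1 to 176, and a difference of 0.26 (SE 0.23, adjusted p = 0.371). Mcts2 took 29.6% of the UMIs of this pair in 1C and 8CB and 11.6% in 2CB and 4CB. The source genes of both retrogenes were not called: Mcts1 had a difference of -0.52 (SE 0.29, adjusted p = 0.15) and Zrsr2 of -0.11 (SE 0.24, adjusted p = 0.721). Whether a retrogene and its source gene differed in their change was not tested. Mcts2 is 83.9% identical to Mcts1 over 678 aligned bases and Zrsr1 79.8% to Zrsr2 over 1255. Some short reads from these bases could be placed on either copy. Beyond the aligned bases, 22 bases of Mcts2 and 1994 of Zrsr1 remained at the transcript end. Where the reads fell was not examined. Inpp5f, a phosphoinositide phosphatase whose locus holds an imprinted variant, had medians of 90.2, 27.6, 37.0 and 37.1 CPM for 1C, 8CB, 2CB and 4CB within 0 to 198, and a difference of -0.64 (SE 0.37, adjusted p = 0.148). Nnat, which codes for neuronatin and lies in an intron of Blcap, had 3 UMIs, all in 2CB and 4CB embryos.

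In the Snrpn domain only Snrpn was tested. It codes for a core spliceosomal protein and had 40.5 to 424 CPM in 1C (median 166), 70.5 to 544 in 8CB (median 160), 52.1 to 152 in 2CB (median 90.4) and 31.9 to 186 in 4CB (median 111). Its difference was -1.09 (SE 0.33, adjusted p = 0.00749). It shares 589 exon bases on the same strand with Gm38393, which had 73 UMIs. Ndn, a growth-restraining protein of neurons, had 5 UMIs and Peg12, a relative of the FRAT proteins of Wnt signalling, had 6, and no group held more than 5 UMIs of either.

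In the Dlk1-Meg3 domain, Meg3 varied widely between embryos. Meg3, a maternal noncoding RNA, had 8.66 to 467 CPM in 1C (median 161), 0 to 457 in 8CB (median 21.9), 9.29 to 251 in 2CB (median 76.4) and 16.8 to 195 in 4CB (median 81.8). Its biological coefficient of variation over all groups was 1.02, at percentile 99.1 of the genes tested, beside 1.01 and percentile 99.0 for H19 and 0.442 for the common value. The difference between the pools was -0.49 (SE 0.61, adjusted p = 0.527), and without 8CB embryo 1 it was 0.45 (adjusted p = 0.555). Dlk1, a Notch-related protein made from the paternal allele, had 43 UMIs in 4 embryos, 1 in each group, with 12 in 1C embryo 3, 9 in 2CB embryo 5, 17 in 4CB embryo 4 and 5 in 8CB embryo 4.

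The other imprinted genes were 1 higher, 1 lower and 4 that did not pass the filter. Zdbf2, a zinc finger gene, had medians of 21.8, 17.4, 32.5 and 30.1 CPM for 1C, 8CB, 2CB and 4CB within 0 to 185, and a difference of 0.97 (SE 0.48, adjusted p = 0.0953). Without 4CB embryo 2, its highest, the difference was 0.61 (adjusted p = 0.274). Grb10, an adaptor that dampens insulin signalling, had medians of 56.1, 27.2, 9.07 and 30.3 CPM for 1C, 8CB, 2CB and 4CB within 3.0 to 79.1, and a difference of -0.86 (SE 0.40, adjusted p = 0.0718). Both calls lay near the threshold. Each was lost when single embryos were left out, 14 of 24 times for Zdbf2 and 11 of 24 times for Grb10.

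Gnas, which codes for a stimulatory G protein subunit and is expressed from either allele by isoform, had 85 UMIs in 1C and 8CB and 35 in 2CB and 4CB. Its medians were 15.7, 20.3, 3.16 and 6.48 CPM for 1C, 8CB, 2CB and 4CB, a ratio of 0.183 over the groups (95% counting interval 0.120 to 0.274). The interval leaves out the spread between embryos, and 1C embryo 6 held 32 of the 85 UMIs. Without a filter Gnas was called lower, by 2.23 on the log2 scale (adjusted p = 0.000136). It shares 988 exon bases with the opposite-strand gene Nespas, which had 14 UMIs. Mest, a hydrolase-like growth gene, had 0 UMIs in the 12 1C and 8CB embryos and 24 UMIs in 7 of the 12 others, about 3.55-fold the floor. Of these UMIs 12 were in 4CB embryo 4, without which the bound was 2.14-fold. Its level was 0 to 5.21 CPM in 2CB (median 1.14) and 0 to 26.4 in 4CB (median 3.62). Mest was called without a filter (adjusted p = 0.00856) but not by DESeq2 (adjusted p = 0.272) or after thinning (adjusted p = 0.26). It shares 912 exon bases with Copg2 on the opposite strand, which had 78 UMIs, 33 in 2CB and 35 in 4CB, and with the strand setting unknown its 24 UMIs are uncertain. Plagl1, a zinc finger regulator of other imprinted genes, had 31 UMIs in 7 embryos. Impact, a regulator of the translation-control kinase GCN2, had 136 UMIs, with medians of 21.2, 14.8, 9.19 and 9.63 CPM for 1C, 8CB, 2CB and 4CB, and was not called without a filter (adjusted p = 0.15). With at least 5 UMIs in 12 embryos it was tested and called lower (-1.0, adjusted p = 0.0565). Over the 16 members that did not pass the filter, 4 were called higher without it (Airn, Peg10, Ascl2 and Mest) and 2 lower (Usp29 and Gnas), where the same fit called 14.2% of all genes higher and 9.61% lower.

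**Figure D3:**
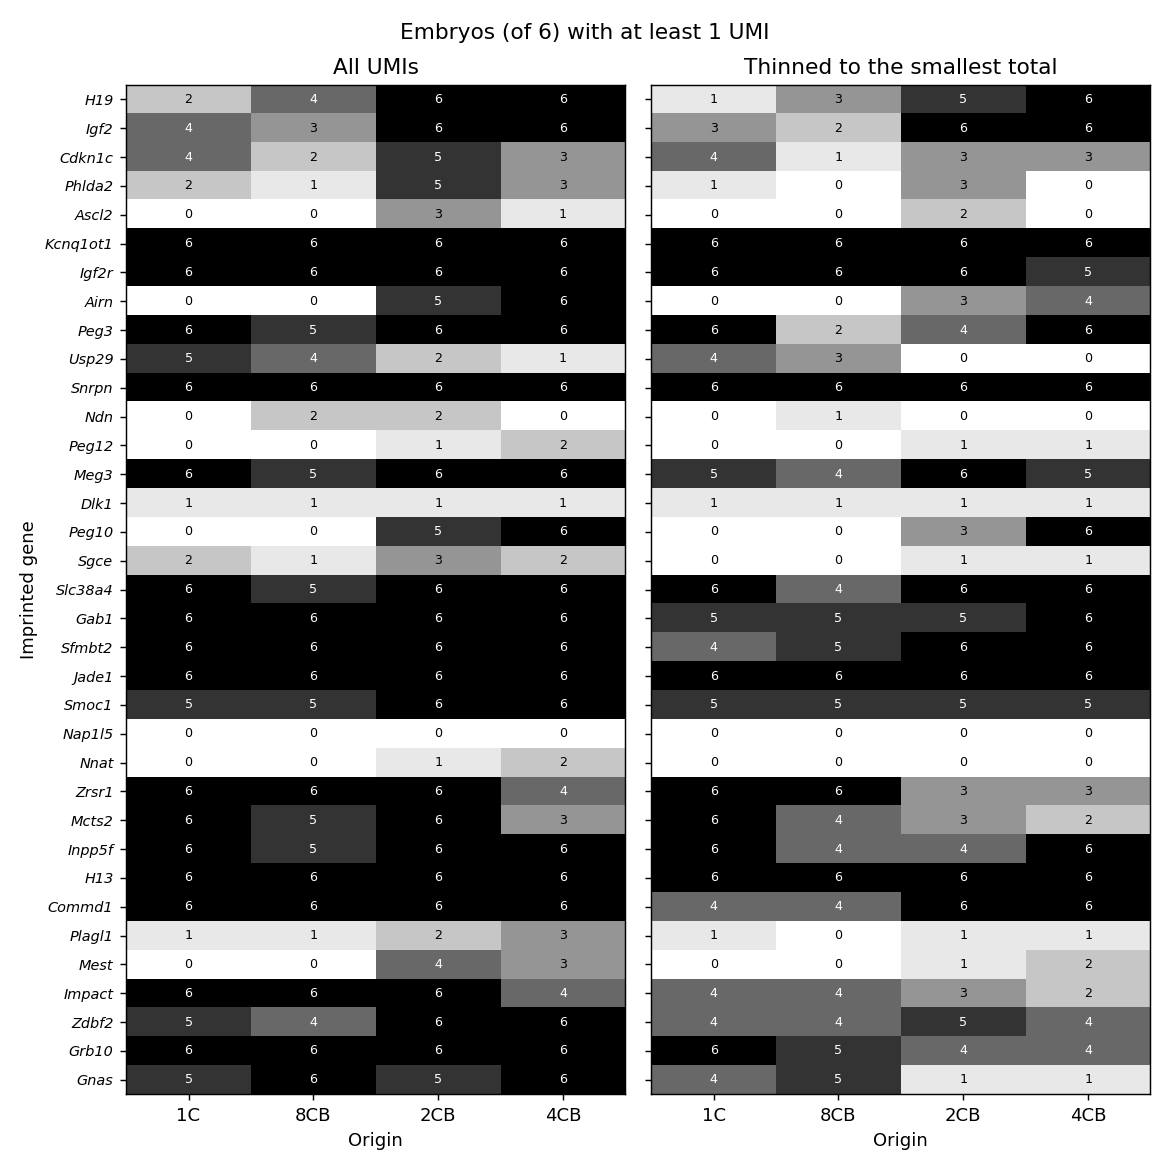
Number of embryos, of 6 per origin, with at least 1 UMI of each gene, with all UMIs (left) and after each embryo was thinned to the smallest total (right). Airn and Peg10 stay at 0 in 1C and 8CB, and Usp29 is at 0 in 2CB and 4CB after thinning.

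Inside the pools, where pool cannot enter, no member was called. For 8CB against 1C edgeR called 0 of the 19, and 0% of all 5940 genes in either direction, and DESeq2 also called 0 members. At an unadjusted p below 0.05 there were 3 members: Kcnq1ot1 (-1.12, SE 0.36), Inpp5f (-1.54, SE 0.52) and Jade1 (-0.84, SE 0.30), with adjusted p of 0.269, 0.302 and 0.339, beside 550 of all genes. For 4CB against 2CB edgeR again called 0 of the 19, while 0.0337% of all genes were higher and 0% lower, and DESeq2 called 0 members. At an unadjusted p below 0.05 were H19 (3.25, SE 0.82, adjusted p = 0.316), Kcnq1ot1 (0.94, SE 0.34) and Peg3 (1.35, SE 0.49), both with an adjusted p of 1, beside 263 of all genes. Without a filter on low counts H19 was called between 4CB and 2CB (3.08, adjusted p = 8.9e-12), but DESeq2 without a filter gave an adjusted p of 0.566.

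The change from 2CB to 4CB was also set against that from 1C to 8CB, and edgeR called 0% of all genes and 0 members for the difference of both. Of the 19 members 5 had an unadjusted p below 0.05, beside 532 of all 5940 genes. Kcnq1ot1 had the lowest, with a difference of 2.06 (SE 0.50, adjusted p = 0.175). Its medians were 177 and 95.2 CPM in 1C and 8CB, against 111 and 281 CPM in 2CB and 4CB. DESeq2 called this difference (2.09, adjusted p = 0.032), and so did edgeR without a filter (1.83, adjusted p = 0.0707). Jade1, Peg3, Grb10 and Inpp5f followed with 1.36 (SE 0.41), 2.2 (SE 0.71), 1.72 (SE 0.79) and 1.58 (SE 0.73).

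**Figure D4:**
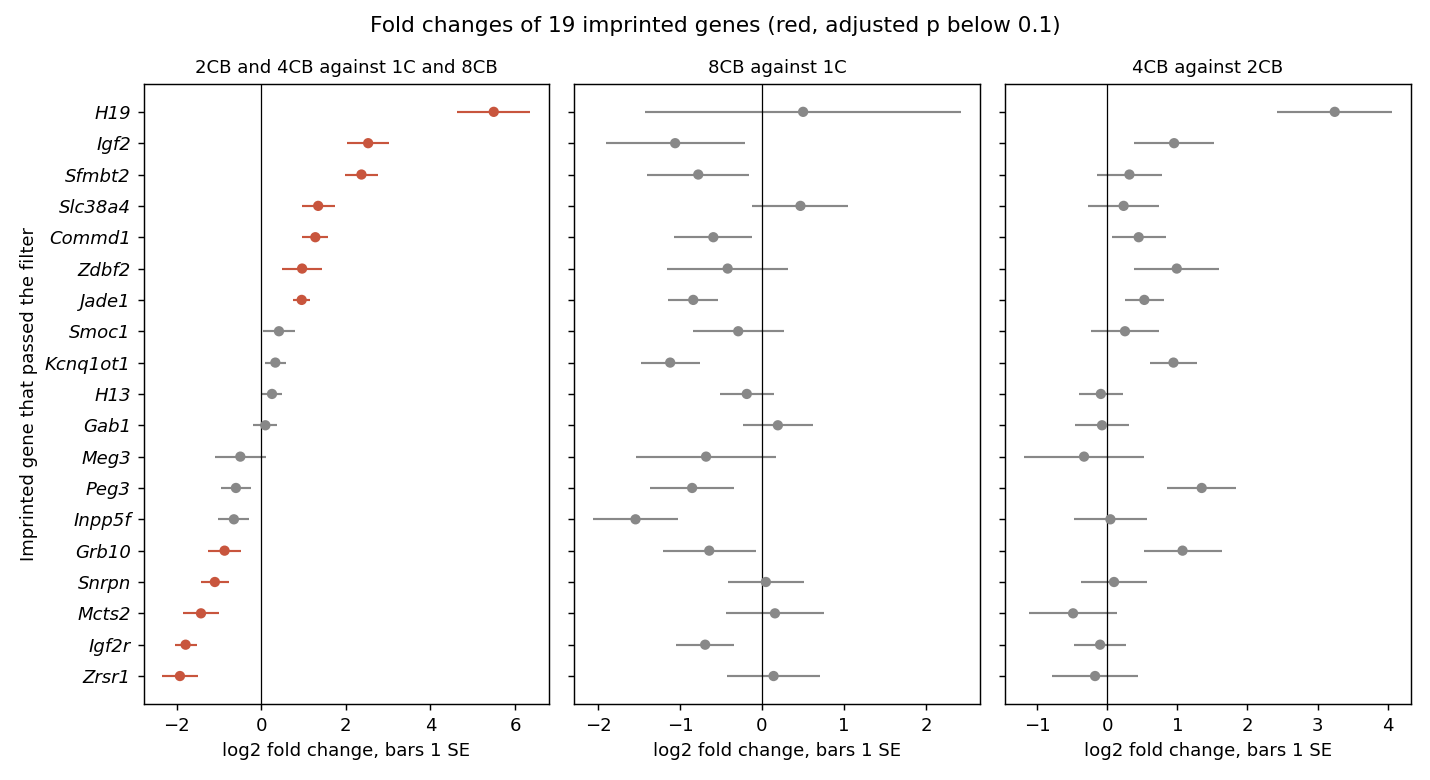
Log2 fold change of the 19 members that passed the filter in 3 comparisons, with bars of 1 SE and red for an adjusted p below 0.1. The 12 calls lie in the comparison between the pools, from -1.92 for Zrsr1 to 5.5 for H19, and no member is red inside a pool.

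A list of genes around imprint control was read beside the members, among them some, such as the Tet genes and Rlim, that do not set or keep imprints. Of 25 listed, 23 were tested, and 7 were called higher and 4 lower in 2CB and 4CB embryos, a median of 0.29. The shares called over all genes tested were 31.3% higher and 24% lower, so the count is not a result about the list, and the genes below are given as single genes. The largest rises were of Dnmt3b, a de novo DNA methyltransferase (3.05, SE 0.31, adjusted p = 5.15e-09), Zfp57 (2.91, SE 0.48, adjusted p = 1.07e-05) and Dnmt1, the maintenance methyltransferase (1.81, SE 0.37, adjusted p = 0.000188). Zfp57 had medians of 4.87 CPM in 1C and 4.75 in 8CB against 60.1 in 2CB and 34.8 in 4CB. The largest falls were of Suz12 (-1.31, SE 0.17, adjusted p = 2.67e-07) and Ezh2 (-0.94, SE 0.27, adjusted p = 0.00551), both of the complex that writes H3K27 trimethylation, and of Dppa3, which shields maternal methylation in the zygote (-1.26, SE 0.21, adjusted p = 1.83e-05). Of 34 further imprinted genes 5 were tested, and Ppp1r9a was called higher (1.97, SE 0.38) and Ago2 lower (-1.0, SE 0.26). No list member was called inside a pool in either list.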

How the data were processed

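The authors prepared CEL-Seq2 libraries of 24 pseudoblastocysts, aligned reads to GRCm38 with HISAT2 2.2.6 and counted UMIs per gene with HTSeq 0.6.1, and the deposited counts are whole numbers before normalization. Versions are from the submitters' processing notes. The strand setting is not given in the sources used here. A further 24 columns of the table match no listed sample and were not used. The largest value, 53029, exceeds the 4096 sequences of a 6-base UMI, although no value of a member exceeded 657, so counting intervals, which cover counting error only, may be too narrow.

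Counts were normalized by TMM (factors 0.928 to 1.07), filtered with filterByExpr (5940 genes kept) and tested with the quasi-likelihood method of edgeR 4.0.16 in R 4.3.3, with 1 mean per group and all 24 embryos. Calls are at a Benjamini-Hochberg adjusted p below 0.1 over all genes tested, and standard errors come from the F statistic. DESeq2 1.42.0 was an alternative. Scripts were tested on simulated data. For a gene without UMIs on one side, a bound was computed from 3 counts over all embryos of that side. The members and lists were chosen with earlier results of these data known. All 35 members are named, those with at least 100 UMIs or a call with their levels. Replicate numbers did not pair embryos (mean correlation -0.0156 over 36 pairs). Nothing says that embryos of a group came from separate fertilization rounds, oocyte donors or parental embryos, so p-values measure the spread between these embryos. The fits without a filter for members that did not pass it were chosen after seeing the data. Between the pools, the SE without a filter was 0.40 instead of 0.86 for H19 and 0.27 instead of 0.61 for Meg3. For Gab1 it was 0.38 instead of 0.28. Adjusted p-values of uneven genes in that fit may therefore be too small.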

Additional observations from a re-analysis of the deposited data

Results flagged for a closer look

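For each gene with at least 100 UMIs and each group with at least 20 of them, the embryo at either end was compared with the nearest of the others. In 11 of 84 such groups of 6 embryos the gap, as a share of the whole range, passed the 95% critical value of Dixon's test, and all 11 were the highest embryo. Chance gives about 1 in 20 for normally distributed values, a rate that need not hold for CPM, which are skewed toward high values, so 11 of 84 is not read against it.

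In 4CB embryos, embryo 2 stood apart for Jade1 (523 CPM, the next at 311), Commd1 (134 CPM, the next at 55.8) and Zdbf2 (185 CPM, the next at 71.8), and embryo 3 for Igf2 (237 CPM, the next at 108.5). In 8CB embryos, embryo 1 stood apart for Meg3 (457 CPM, the next at 81.9), embryo 4 for Snrpn (544 CPM, the next at 174) and embryo 6 for Zrsr1 (141 CPM from 10 UMIs, the next at 72.1). In 1C embryos, embryo 1 stood apart for Peg3 (130 CPM, the next at 52.5), embryo 5 for Sfmbt2 (96.2 CPM, the next at 19) and embryo 6 for Gnas (92.4 CPM, the next at 29.9). In 2CB embryos, embryo 5 stood apart for Grb10 (44.0 CPM, the next at 18.3). In the filtered edgeR fit no member was called for the difference of the within-pool changes. The calls of Kcnq1ot1 by DESeq2 and without a filter are given with that comparison.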

How the results depend on the processing

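The number of members called between the pools was 12. It was 12 with DESeq2 and with its size factors, 12 with at least 5 UMIs in 12 embryos (Impact gained, -1.0, adjusted p = 0.0565, and Zdbf2 lost), 10 when thinned, 11 with the replicate number as a block, 10 at an adjusted p below 0.05, 18 without a filter and 10 to 13 when single embryos were left out. For 8CB against 1C it was 0 throughout. For 4CB against 2CB it was 1 without a filter (H19) and otherwise 0, and for the difference of both changes it was 1 with DESeq2 and 1 without a filter (Kcnq1ot1 each time) and otherwise 0. The cause was not tested. The block ended the call of Zdbf2 (0.84, adjusted p = 0.191), which leaves 11 calls; replicate numbers share only a number here.

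Of the 19 tested members 13 kept their direction and side of the threshold under all 30 alternatives. Zdbf2 also lost its call with the filter of 5 UMIs in 12 embryos (0.92) and when thinned (1.09), and without 1C embryos 1, 2, 5 or 6, 2CB embryos 2 to 5, 4CB embryos 2 or 3, or 8CB embryos 2 to 5 (0.61 to 1.02). Grb10 lost it when thinned (-0.55) and without 1C embryos 1 or 3, 2CB embryos 1, 2, 4 or 6, 4CB embryos 1, 4 or 5, or 8CB embryos 2 or 5 (-0.83 to -0.74). Peg3 turned to 0.35 when thinned and was called without 4CB embryo 5 (-0.74, adjusted p = 0.0858). Inpp5f was called without 1C embryo 6, 4CB embryo 5 or 8CB embryo 6 (-0.78 to -0.72). Gab1 turned to -0.23 when thinned and ran from -0.000214 (without 8CB embryo 4) to 0.18 with embryos left out, and Meg3 from -0.74 to 0.45.

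For the 15 members with a UMI that did not pass the main filter, fits without a filter were compared. Airn, Peg10, Usp29 and Gnas kept their calls under DESeq2, thinning and each embryo left out, with adjusted p up to 0.00125, 0.00321, 0.000616 and 0.0141. Ascl2 was not called when thinned (0.93) or without 4CB embryo 4 (1.73), and DESeq2 gave no adjusted p. Mest was not called with DESeq2 (2.04) or thinned (1.53). Thinning turned Dlk1 to 0.20 and Sgce to 1.21. With embryos left out, Cdkn1c ran from -0.68 to 0.16, Dlk1 from -2.58 to 1.42 (above 0 without 1C embryo 3, 1.42, or 8CB embryo 4, 0.97), Sgce from -0.68 to 0.63 (above 0 without 1C embryo 1, 0.50, or 8CB embryo 2, 0.63) and Plagl1 from -0.27 to 1.84. Phlda2 was called without 8CB embryo 1 (2.52), Dlk1 without 2CB embryo 5 or 4CB embryo 4, and Impact without 4CB embryo 6 (-1.18). At this depth 16 members could not be tested with the filter.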
